A study of Homo sapiens with 6 samples.

Results

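The interval studied here is 5.7 Mb of the long arm of chromosome 11, from 97.2 to 102.9 Mb on hg19, which is the sum of cytogenetic bands 11q22.1 and 11q22.2. It held 62 of the 35687 peaks in 3 ChIP-seq lists: 50 of BRD8 in 16HBE14o-, 2 of BRD8 in Calu3 and 10 of CTCF in Calu3. A peak belonged to the interval if its summit lay inside. The stretch was selected on the same calls that are described below, because earlier results had shown many 16HBE14o- and few Calu3 BRD8 peaks there, so the counts of BRD8 peaks are descriptions and were not tested.

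The 6 samples were 2 replicates of each experiment, without treatment and in the same serum-supplemented DMEM medium. 16HBE14o- is a line of human bronchial epithelium, and Calu3 is a line of human lung adenocarcinoma. One antibody product was used for BRD8 in both lines, and CTCF was mapped in Calu3 alone. Each list was pooled by the authors from its replicates, so no spread between replicates, depth or test between the lines could be given. Each tissue type is 1 line. With 1 list per line, the amount of DNA, the detection of peaks and the occupancy of BRD8 cannot be told apart.

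BRD8 contains a bromodomain and belongs to the NuA4/TIP60 complex, which acetylates histones and exchanges histone variants at active chromatin. CTCF is a zinc finger protein that marks insulators and the anchors of chromatin loops. The 2 bands hold genes that matter in airway epithelium and in carcinomas. In 11q22.1 lie YAP1, the transcriptional coactivator restrained by the Hippo pathway, TRPC6, a calcium-permeable cation channel, and PGR, the progesterone receptor. In 11q22.2 lie BIRC2 and BIRC3, ubiquitin ligases that restrain cell death and act in NF-kB signalling, TMEM123, a membrane glycoprotein, and a cluster of matrix metalloproteinases. Of these, MMP1 is the interstitial collagenase, MMP3 and MMP10 are stromelysins, MMP7 is matrilysin, which airway epithelium makes after injury, and MMP20 is the enamel protease. From left to right, the RefSeq order of 20 listed genes is CNTN5, ARHGAP42, PGR, TRPC6, ANGPTL5, CEP126, CFAP300, YAP1, BIRC3, BIRC2, TMEM123, MMP7, MMP20, MMP27, MMP8, MMP10, MMP1, MMP3, MMP12 and MMP13. Gene positions on hg19 were not used here, so peaks are placed by band and coordinate and none is assigned to a gene.

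RefSeq promoters (build GRCh38.p14, 250 bases before to 50 after the start) were matched for 15 of the 20 genes, some with more than 1 start. They show that the stretch joins unlike promoters. The 5 matched metalloproteinase promoters (MMP7, MMP20, MMP27, MMP8 and MMP10) had 33.3 to 44.3% G and C and 2 to 4 CpG pairs, against medians of 58.7% and 14 over 35116 promoters. The promoters of YAP1 (70.7%, 40 CpG pairs), TMEM123 (71.3%, 38) and BIRC2 (68.7 to 74.0%, 40 to 44) were rich in both. Low values were not limited to the metalloproteinases: TRPC6 had 44.7% with 5 CpG pairs and ANGPTL5 35.7% with 1, while BIRC3 was at 53.3% with 15. Letters of the CTCF core, CCNNNAGGNGGC on either strand, were found in YAP1 and TMEM123 and in none of the other 13 genes, beside 4.64% of all promoters. Letters of a loose AP-1 pattern, TGANTCA with any base in the middle, were found in MMP7, MMP20 and MMP10. None of the other 12 genes had them, beside 7.71% of all promoters. The pattern reads the same on both strands, but the match in MMP10, TGAATCA, does not. No match of one motif overlapped a match of the other. The 250 bases before the start site are printed for one promoter of each kind of match and for TMEM123, 5′ to 3′ on the strand of the gene, with the match in capitals. The matches begin 79 bases before the start in YAP1, 37 in TMEM123, where the core is on the opposite strand, and 67 in MMP10. A match is not a binding site, and whether BRD8 or CTCF peaks lie on these promoters was not tested.
YAP1: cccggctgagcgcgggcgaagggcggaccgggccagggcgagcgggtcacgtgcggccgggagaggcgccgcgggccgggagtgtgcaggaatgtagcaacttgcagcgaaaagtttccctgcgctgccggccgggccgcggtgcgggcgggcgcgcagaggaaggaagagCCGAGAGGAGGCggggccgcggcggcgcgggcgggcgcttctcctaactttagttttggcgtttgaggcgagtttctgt
TMEM123: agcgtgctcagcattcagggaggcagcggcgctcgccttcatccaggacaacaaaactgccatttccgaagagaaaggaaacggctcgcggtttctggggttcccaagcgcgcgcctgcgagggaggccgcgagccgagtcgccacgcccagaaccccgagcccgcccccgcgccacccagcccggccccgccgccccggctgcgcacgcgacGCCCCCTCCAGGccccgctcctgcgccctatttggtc
MMP10: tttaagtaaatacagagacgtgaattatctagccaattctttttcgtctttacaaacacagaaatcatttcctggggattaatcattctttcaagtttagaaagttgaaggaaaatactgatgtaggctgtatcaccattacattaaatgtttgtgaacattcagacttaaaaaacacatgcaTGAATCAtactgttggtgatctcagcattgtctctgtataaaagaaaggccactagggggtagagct

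BRD8 in 16HBE14o- was called densely toward the right end of the interval and BRD8 in Calu3 hardly at all. Of the 50 16HBE14o- peaks, 47 (94.0%, 95% exact Clopper-Pearson interval 83.5 to 98.7%) overlapped no Calu3 BRD8 peak by 1 bp or more. These are the peaks of 16HBE14o- alone. Over the whole list 56.6% of 16HBE14o- peaks were of that line alone, and because the stretch was chosen on these calls nothing is read from the difference. Intervals here and below cover counting error only. Both Calu3 BRD8 peaks of the interval overlapped a 16HBE14o- peak, so no peak of Calu3 alone was found, beside 49.9% over the whole Calu3 list.

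By bins of 0.5 Mb, the first 1.5 Mb of the interval, from 97.2 to 98.7 Mb, held 1 peak of 16HBE14o- alone. The next 3 bins, to 100.2 Mb, held 1, 2 and 2. From 100.2 Mb the bins held 5, 6, 3, 10 and 15 peaks, with the last of these from 102.2 to 102.7 Mb, and all 5 lacked a Calu3 BRD8 peak. The bin from 102.7 to 103.2 Mb, which crosses the right end of the interval, held 6, and the Calu3 peaks of the interval both lay in it. The bins after it held 3, 2 and 3 up to 104.7 Mb, and the 7 bins from there to the end of the window at 107.9 Mb held none. On the left, the 10 bins of the 5 Mb before the interval held 0 to 4.

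**Figure D1:**
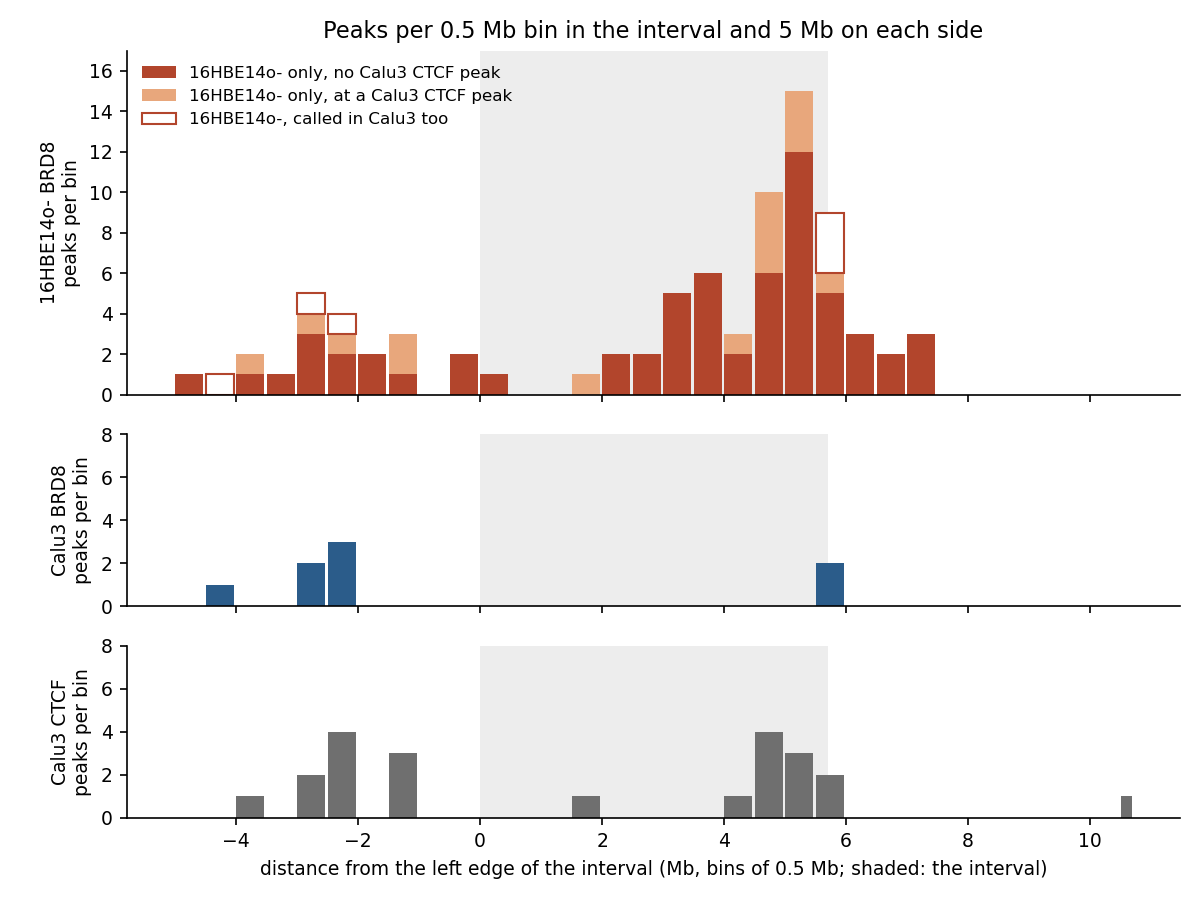
Peaks per 0.5 Mb bin of the 16HBE14o- BRD8, Calu3 BRD8 and Calu3 CTCF lists (y axes) against distance from the left edge of the interval in Mb (x axis), with the interval shaded. Bars of 16HBE14o- alone reach 15 per bin near the right end of the interval, while Calu3 BRD8 has 2 peaks in the whole interval; the last bin is 0.2 Mb wide.

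The edges were placed at the outer sides of the consecutive bins with at least 3 peaks of 16HBE14o- alone. They lay at 100.2 and 103.7 Mb and enclosed 48 such peaks in 3.5 Mb. By this cutoff the left edge lay 3.0 Mb inside the left end of the interval and the right edge 0.8 Mb past its right end. The cutoff was also met in the flanks, by the bins from 94.2 (4 peaks), 94.7 (3), 95.7 (3) and 104.2 Mb (3). The bin from 103.2 Mb, which set the right edge, held 3, fewer than the highest flank bin. The edges therefore do not separate the stretch cleanly from the level of its flanks. The edges moved with the width of the bins: with bins of 0.25 Mb they were 101.7 and 102.95 Mb, and with bins of 1 Mb 99.2 and 105.2 Mb. The cutoff stayed at 3 peaks per bin at each width, so wider bins met it at a lower density. The edge at 105.2 Mb lies past the last 16HBE14o- BRD8 peak of the window. The densest part, from 101.7 to 102.7 Mb, lay inside under each width. The right end had a clear last peak by position. After the summit at 104612109, no 16HBE14o- BRD8 summit followed until 108093630, a gap of 3.48 Mb. The left side thinned out with no such step, apart from a gap of 1.56 Mb between the summits at 97326161 and 98886789.

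Just inside the left end lay the peak from 97326049 to 97326272, at percentile 18.6 of signal in its list, where 100 is the strongest, and just outside it the peak from 96889896 to 96890119, at percentile 6.57. Just inside the right end lay the peak from 102811815 to 102812038 at percentile 86.7, and just outside it the one from 102906751 to 102906974 at percentile 71.3. The peaks on both sides of the right end belonged to one continuous series.

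BRD8 peaks of 16HBE14o- were denser in the right band than in the left. Band 11q22.2, with BIRC2, BIRC3 and the metalloproteinase cluster, held 24 16HBE14o- BRD8 peaks in 0.8 Mb, or 30.0 per Mb. Band 11q22.1, with CNTN5, PGR, TRPC6 and YAP1, held 26 in 4.9 Mb, or 5.31 per Mb. The ratio was 5.65 (exact interval of the binomial split 3.11 to 10.2). The stretch was chosen on these calls, so the ratio is a description and was not tested. For CTCF in Calu3 the ratio between the bands was in the same direction, 9.19 (2.18 to 44.3), from 6 and 4 peaks. Peaks of 16HBE14o- alone lay a median of 20.7 kb apart in 11q22.2 (1.10 to 104 kb) and 97.4 kb apart in 11q22.1 (1.01 kb to 1561 kb).

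Over the interval, peaks of 16HBE14o- alone numbered 8.25 per Mb, against 3.60 in the left 5 Mb, 2.40 in the right 5 Mb and 1.76 over all chromosomes outside the interval. The ratio to both flanks was 2.75 (1.70 to 4.50), and with flanks of 2 Mb it was 1.74 (0.999 to 3.13). Because the stretch was chosen for many such peaks, these ratios describe the choice, and nothing is read from their intervals. The 12 peaks of the right flank all lay before 104.7 Mb, and without 102.9 to 104.7 Mb the ratio to the flanks was 3.76 (2.14 to 6.87), a comparison chosen after the values were seen. CTCF in Calu3 was sparse in the same stretch, with 1.75 peaks per Mb in the interval and 1.20 in the flanks, against 5.41 outside the interval. Its density in the interval over that in the flanks was 1.46 (0.566 to 3.69).

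**Figure D2:**
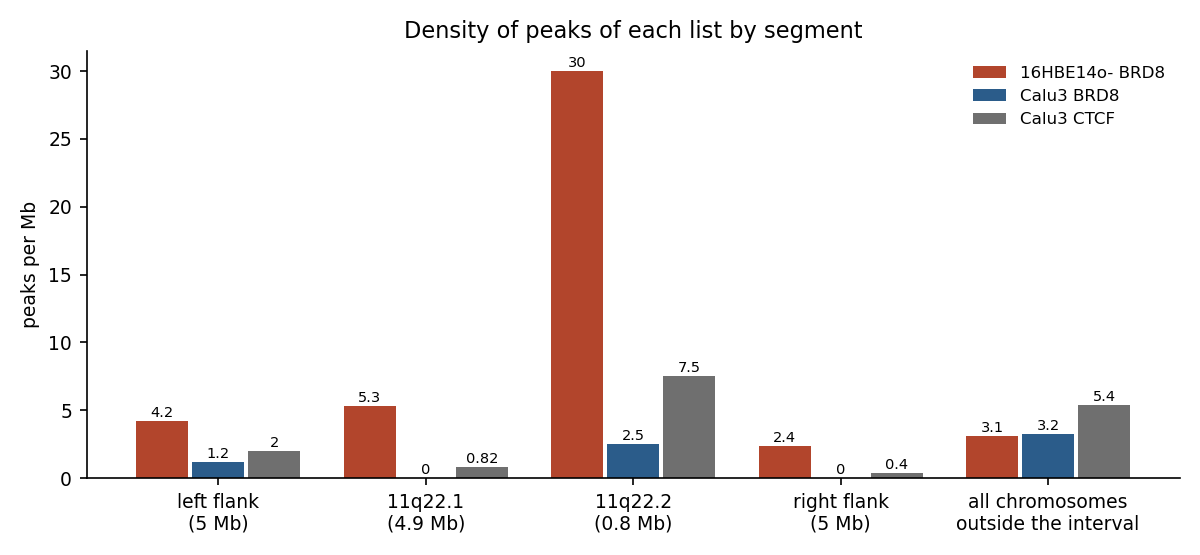
Peaks per Mb (y axis, from 0) of the 3 lists in the left flank, 11q22.1, 11q22.2, the right flank and all chromosomes outside the interval (x axis), each bar 1 pooled list with no replicate error. The 16HBE14o- BRD8 bar of 11q22.2 stands at 30 per Mb, against 3.1 outside the interval, while the Calu3 BRD8 bar of that band is 2.5 against 3.2.

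Signal ranks of the peaks of 16HBE14o- alone were spread widely over the list. Their median percentile was 41.3, with quartiles of 14.7 and 88.7, beside a median of 39.3 and quartiles of 18.8 and 63.6 for such peaks outside the interval. In the flanks the median was higher, 62.1 over the 30 peaks, with 39.6 on the left and 73.1 on the right. The strongest 10% of the 16HBE14o- list took in 12 of the 47 (25.5%), beside 3 of 30 (10.0%) in the flanks and 4.52% of such peaks outside the interval. The weakest 10% took in 7 (14.9%), close to the 13.7% outside, beside 2 (6.67%) in the flanks. In 11q22.2 the median was 69.7 and 7 of 21 stood in the strongest 10%. In 11q22.1 the median was 35.8 and 5 of 26 stood there. The 4 peaks between 99.2 and 100.2 Mb were all below the middle of the list, at percentiles 0.973 to 34.0.

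The strongest peak of 16HBE14o- alone lay in 11q22.2, from 102217800 to 102218023 (signal 63.8, rank 270 of 9505), and overlapped CTCF. The next was from 102483757 to 102483980 (signal 62.5, rank 291), with no CTCF peak. The third lay from 102604037 to 102604260 (signal 61.4, rank 311) and overlapped CTCF. All 3 were in the band of the BIRC and MMP genes. Then followed 2 peaks of 11q22.1 without CTCF, from 101731531 to 101731754 (signal 57.6, rank 408) and from 100726288 to 100726511 (signal 56.4, rank 462). The other 5 of the strongest 10 ranked 753 to 890. They were 100447230 to 100447453, 101630857 to 101631080 and 98886677 to 98886900 in 11q22.1, and 102537173 to 102537396 and 102158710 to 102158933 in 11q22.2. Of these 5, the peaks at 98886677 and 102158710 overlapped CTCF. The strongest 10 thus spanned 3.7 Mb of the interval, next to weak peaks. The peak at 98886677 stood apart on the left, and the others lay from 100447230 to 102604260. The peak at 100447230, at percentile 92.1, lay 1.01 kb from one at percentile 13.8.

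**Figure D3:**
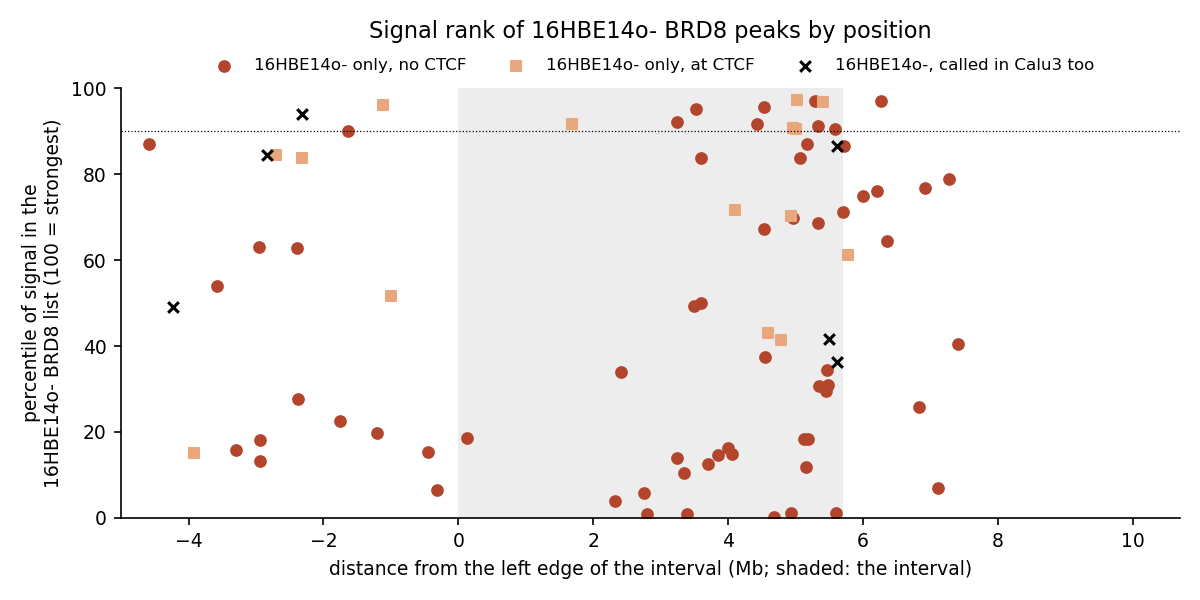
Percentile of signal within the 16HBE14o- BRD8 list (y axis, 100 the strongest) of each 16HBE14o- peak against its distance from the left edge of the interval in Mb (x axis); the interval is shaded and the dotted line marks the strongest 10%. Circles are peaks of 16HBE14o- alone without CTCF, squares those at a Calu3 CTCF peak and crosses peaks called in Calu3 too; 12 of the 47 peaks of 16HBE14o- alone in the interval lie above the line.

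Few of these BRD8 peaks lay at a CTCF peak, while every CTCF peak of the interval lay at a 16HBE14o- BRD8 peak. Of the 47 peaks of 16HBE14o- alone, 9 overlapped a Calu3 CTCF peak (19.1%, 9.15 to 33.3%), beside 49.5% over all such peaks of the list. The share was bounded by the few CTCF peaks. The interval held 10, and the only one not counted here lay at a BRD8 peak called in both lines. Nothing is therefore read from the difference. The flanks gave 6 of 30 (20.0%, 7.71 to 38.6%), so the low share was not seen in the interval alone. It was 4 of 26 in 11q22.1 (15.4%, 4.36 to 34.9%) and 5 of 21 in 11q22.2 (23.8%, 8.22 to 47.2%). Because CTCF was mapped in Calu3 alone, the other 38 peaks may or may not bind CTCF in 16HBE14o-. From these 38 peaks to the closest listed CTCF summit the median distance was 127 kb. It was 472 kb for such peaks in the flanks and 50.3 kb for those outside the interval. The bands differed: the median was 544 kb over the 22 such peaks of 11q22.1, longer than in the flanks, and 67.9 kb over the 16 of 11q22.2.

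Strong peaks without CTCF were part of this. Of the 12 peaks of 16HBE14o- alone in the strongest 10%, 5 overlapped CTCF (41.7%), beside 216 of 253 (85.4%) over the list. In the flanks 1 of 3 did so. This share was also bounded by the few CTCF peaks of the stretch, so nothing is read from the difference. The other 7 of the 12 were 18.9% of the 37 peaks of that kind, strong, of 16HBE14o- alone and without CTCF, on all chromosomes. Of all 2717 peaks of 16HBE14o- alone without CTCF, strong or weak, the interval held 38 (1.40%). Among the 2717 the 7 ranked 6, 11, 13, 23, 27, 32 and 34. The flanks held 2 of the 37, so such peaks were not limited to the interval. The one from 103472079 to 103472302 in the right flank ranked 5, above every such peak of the interval. The one from 95569255 to 95569478 in the left flank ranked 37. The 9 peaks at CTCF had a median percentile of 90.5 (41.3 to 97.2), and the 38 without had one of 30.8 (0.142 to 96.9), so the ranges overlapped.

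Read from the side of CTCF, all 10 CTCF peaks of the interval carried BRD8 in 16HBE14o- (100%, 69.2 to 100%), beside 38.0% of all CTCF peaks. In the flanks 8 of 12 did so (66.7%, 34.9 to 90.1%). In Calu3, the line in which these CTCF peaks were mapped, 1 of the 10 carried BRD8 (10.0%, 0.253 to 44.5%), beside 36.1% of all CTCF peaks, and in the flanks 3 of 12. The stretch was chosen for many 16HBE14o- and few Calu3 BRD8 peaks, which favours a high share in the first line and a low one in the second. Nothing is read from these differences. The CTCF peaks were not strong ones: their percentiles in the CTCF list ran from 7.21 to 83.4 with a median of 31.4. Over all chromosomes the share with BRD8 in 16HBE14o- was 9.45% in the weakest decile of CTCF peaks and 61.8% in decile 9, the highest decile with a CTCF peak of the interval.

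The 5 strongest CTCF peaks were met as follows. The strongest, from 102217819 to 102218008 (signal 116, percentile 83.4), coincided with the strongest BRD8 peak of the interval, and the summits were 14 bp apart. The next, from 102702249 to 102702369 (signal 80.3, percentile 76.8), had BRD8 in both lines. It was followed by 102139437 to 102139726 (signal 48.7), 101785809 to 101786098 (signal 34.0) and 101981799 to 101982088 (signal 29.1). Their 16HBE14o- BRD8 peaks stood at percentiles 70.3, 43.0 and 41.3, with summits 25, 6 and 0 bp away. A CTCF peak that was weak in Calu3 could lie at a strong BRD8 peak of 16HBE14o-, where CTCF was not mapped. The CTCF peak from 98886636 to 98886925 stood at percentile 16.1 and its BRD8 peak at 91.7, with summits 8 bp apart. Over the 10 pairs the median distance between summits was 29 bp, and 9 were within 50 bp; the exception was 141 bp, from a CTCF peak at percentile 7.21.

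The Calu3 BRD8 peaks of the interval were both in 11q22.2 and of less than middle rank. One, from 102702080 to 102702555 (signal 25.8, percentile 29.4), lay at the second CTCF peak, 3 bp from its summit, and 36 bp from the summit of a 16HBE14o- peak at percentile 41.6. The other, from 102811659 to 102812134 (signal 28.6, percentile 39.2), had no CTCF peak. It lay 30 bp from the summit of a 16HBE14o- peak at percentile 86.7 and also met a neighbouring 16HBE14o- peak at percentile 36.3 by 2 bp, with summits 348 bp apart. These 3 16HBE14o- peaks are the ones counted as called in both lines, and with summits within 100 bp required they were 2. To the left, Calu3 had no BRD8 summit back to 94888080, a gap of 7.81 Mb, and to the right none up to 110072236, a gap of 7.26 Mb. Calu3 CTCF had 10 peaks in the interval and none between 102980098 and 107879584.

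Set against all chromosomes, the right part of the interval ranked near the top by number of peaks of 16HBE14o- alone, as its choice fixes. The bin from 102.2 to 102.7 Mb, with 15, ranked 3 of 6096 bins, of which 2518 held any such peak. Without CTCF it held 12 and ranked 2, after the bin from 65.2 Mb on the same chromosome with 16. The bin from 101.7 to 102.2 Mb, with 10, was exceeded by 12 bins. In CTCF peaks the same bins ranked 1597 and 1222. Of 851 cytogenetic bands, 11q22.2 had the highest density of peaks of 16HBE14o- alone (26.2 per Mb), and for those without CTCF (20.0 per Mb) it was second to 17q21.1 (23.3 per Mb, 7 peaks in 0.3 Mb). Band 11q22.1 ranked 71 and 26 by these measures. In CTCF density 11q22.2 ranked 226 and 11q22.1 ranked 711.

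**Figure D4:**
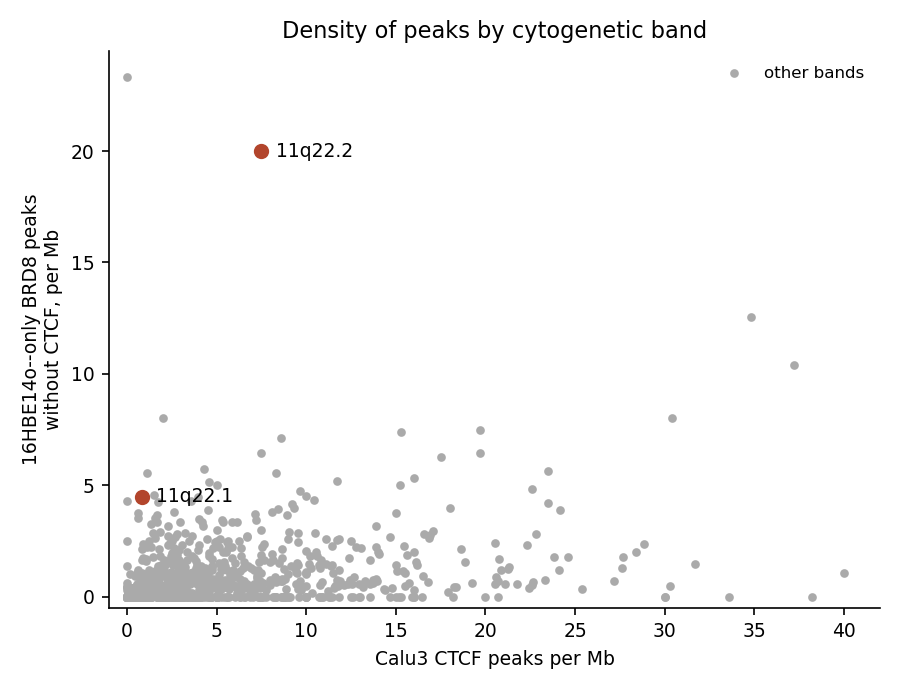
Peaks of 16HBE14o- alone without CTCF per Mb (y axis) against Calu3 CTCF peaks per Mb (x axis), 1 point for each of 851 cytogenetic bands. Band 11q22.2 stands at 20 per Mb with 7.5 CTCF peaks per Mb, and 11q22.1 at 4.49 with 0.816; the grey point at 23.3 is 17q21.1.

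Uninterrupted runs describe the peaks without bins, and their ends differ from the edges given above. From 95438802 to 102702393, 53 16HBE14o- BRD8 peaks followed each other over 7.26 Mb with no Calu3 BRD8 summit between them. The last of the 53 itself overlapped the Calu3 BRD8 peak whose summit ended the run. The run was the longest of 4981 such runs, and the next had 29 peaks, on chromosomes 13 and 18. Runs are defined by the calls on which the stretch was chosen, so this rank is a description only. A second run of 15 peaks began at 102811815 and ended at 109817180, and shared rank 9. The first run took in 7 peaks of the left flank and 46 of the interval. Both its ends are set by Calu3 peaks and not by a change in 16HBE14o- density.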

How the data were processed

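BRD8 was mapped by ChIP-seq in 16HBE14o- and Calu3 and CTCF in Calu3, with 2 replicates of each. The authors deposited 1 narrowPeak list per experiment on hg19, per the file headers, combined from the replicates by IDR, per the series' design text. The aligner, peak caller, control library and IDR settings are not given in the sources used here. The deposited signal column has no stated normalization. It ranked peaks within a list and was never compared between lists. With no values per replicate, depth is unknown and nothing was tested.

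The stretch, its members and the gene list were chosen with earlier results of these data known. Peaks were assigned by summit and compared by overlap of at least 1 bp. Named peaks are the 10 strongest of 16HBE14o- alone, the outermost, those called in both lines, both Calu3 BRD8 peaks and the 5 strongest CTCF peaks. Shares have 95% exact Clopper-Pearson intervals, and density ratios exact intervals of the binomial split. Peaks are not independent, so these cover counting error only. Bands came from circlize 0.4.16, with chromosome lengths checked against GenomeInfoDb 1.38.1. Computation used Python 3.11.15, numpy 2.4.6, pandas 2.3.3, scipy 1.17.1 and matplotlib 3.10.9. The overlap code was tested on simulated data and gave the same counts as bedtools 2.31.1. Peak sequences are not printed because no hg19 sequence was used here.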

Additional observations from a re-analysis of the deposited data

How the results depend on the processing

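Of 33 alternatives, 24 left the value within its counting interval, within 1.5 times the count or, for an edge, within 0.5 Mb. Some of these limits are wide, such as 69.2 to 100% for the CTCF peaks with 16HBE14o- BRD8. The tally is therefore no measure of stability. Of the edges, bins of 0.25 Mb gave 101.7 and 102.95 Mb, bins of 1 Mb gave 99.2 and 105.2 Mb, and the longest run without a Calu3 BRD8 peak between gave 95.4 and 102.7 Mb. In the upper 50% of each list by signal, 21 peaks of 16HBE14o- alone were left and 66.7% of CTCF peaks (2 of 3) carried BRD8 in 16HBE14o-. The median percentile was 90.5 for the peaks of 16HBE14o- alone that lay at CTCF. The density over that of the flanks ran from 1.74 with flanks of 2 Mb to 3.76 without 102.9 to 104.7 Mb. The cause of these shifts was not tested beyond what fewer peaks or other bins give by construction. 3 of the 33 alternatives, each of the bands by itself and the flanks without 102.9 to 104.7 Mb, were chosen after the data were seen. No paired analysis was possible because each list is pooled over its replicates, and for the same reason no replicate could be left out. The unknown depth limits every count of peaks not called.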
